A study of Homo sapiens with 9 samples.

Results

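The genes described here encode the subunits of the proteasome, its activators, an inhibitor and the chaperones that assemble it. They were chosen by name, as every gene of the deposited tables whose symbol is PSMA to PSMG followed by a number, which gave 48 of 26485 genes, on the same lines of both tables. By role they were 7 alpha and 7 constitutive beta subunits of the 20S core, 3 inducible catalytic subunits, 2 tissue-restricted core subunits, 17 subunits of the 19S cap, 7 assembly chaperones and 5 activators or inhibitors.

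MDA-MB-231, a triple-negative breast cancer line of mesenchymal type, stably expressed a non-specific hairpin (NS shRNA) or 1 of 2 hairpins against ASAH1, the lysosomal acid ceramidase (ASAH1 shRNA #1 and #2). Single-end reads came from 9 libraries, 3 of each group, and the comparison asks which transcripts change when ASAH1 is depleted. The labels call the libraries biological replicates. They do not say whether the replicates came from separate infections, so the p-values measure the spread between these libraries. NS shRNA libraries held 30989598 to 34867548 reads on genes, shRNA #1 libraries 23806003 to 39791698 and shRNA #2 libraries 35653318 to 49659106. The target was lower with both hairpins, at 4634 to 4725 normalized reads of ASAH1 with NS shRNA, 1327 to 1427 with shRNA #1 and 737 to 782 with shRNA #2. Of the line's markers VIM, CD44, EGFR, AXL, CAV1 and KRT18, each had at least 2667 reads in every library, while the receptor genes ESR1 and PGR had at most 2. ERBB2, a further receptor gene, had 1530 to 3581 reads.

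The 26S proteasome degrades proteins tagged with ubiquitin. Its 20S core is a barrel of alpha and beta rings in which PSMB5, PSMB6 and PSMB7 carry the active sites, and its 19S cap recognises, unfolds and feeds in substrates with a ring of PSMC ATPases, a base and a lid. In cells exposed to interferon, and in many leukocytes, PSMB8, PSMB9 and PSMB10 take the place of the constitutive catalytic subunits and form the immunoproteasome. When proteasome activity falls short, the transcription factor NFE2L1 raises the genes of the constitutive particle through antioxidant response elements.

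Upstream sequence is shown for 5 members whose values are described further on, so that the letters can be read beside the levels. Each stretch comes from the 250 bases before a RefSeq start (GRCh38.p14) and leaves out any base that lies in an exon of a protein-coding transcript of GENCODE v44. The first 3 are PSMD12 at chr17:67366606-67366827 on the minus strand, PSMG1 at chr21:39183489-39183701 on the minus strand and PSMD3 at chr17:39980557-39980806 on the plus strand. Capitals mark the letters TGACNNNGC, the core of the antioxidant response element, searched on both strands.
PSMD12: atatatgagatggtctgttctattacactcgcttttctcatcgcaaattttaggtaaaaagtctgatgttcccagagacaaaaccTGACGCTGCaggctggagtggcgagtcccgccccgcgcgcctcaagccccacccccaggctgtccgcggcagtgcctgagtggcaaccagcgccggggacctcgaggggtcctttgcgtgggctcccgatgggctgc
PSMG1: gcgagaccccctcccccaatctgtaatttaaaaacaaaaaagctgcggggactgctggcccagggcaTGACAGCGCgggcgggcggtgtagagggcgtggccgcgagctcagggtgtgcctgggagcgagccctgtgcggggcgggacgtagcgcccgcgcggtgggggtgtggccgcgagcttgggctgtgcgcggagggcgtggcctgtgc
PSMD3: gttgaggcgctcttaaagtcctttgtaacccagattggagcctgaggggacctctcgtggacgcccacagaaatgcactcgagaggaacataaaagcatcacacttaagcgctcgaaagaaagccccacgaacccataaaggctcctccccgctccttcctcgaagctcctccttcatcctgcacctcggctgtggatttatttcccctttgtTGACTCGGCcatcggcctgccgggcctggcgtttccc
In the next pair, capitals mark TTTCNNTTT, the central part of the interferon-stimulated response element, again searched on both strands. PSMB9 at chr6:32853942-32854191 on the plus strand held no match, and PSMB10 at chr16:67936851-67937100 on the minus strand held 2, both on the other strand, starting 77 and 20 bases before the RefSeq start. The PSMB9 stretch also holds 1 match to TGACNNNGC on the other strand, 148 bases before the start and left in lower case here.
PSMB9: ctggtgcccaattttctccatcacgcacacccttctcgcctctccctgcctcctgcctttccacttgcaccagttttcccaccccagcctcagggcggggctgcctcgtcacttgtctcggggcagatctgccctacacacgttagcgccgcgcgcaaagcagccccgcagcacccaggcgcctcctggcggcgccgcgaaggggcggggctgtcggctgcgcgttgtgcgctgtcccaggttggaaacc
PSMB10: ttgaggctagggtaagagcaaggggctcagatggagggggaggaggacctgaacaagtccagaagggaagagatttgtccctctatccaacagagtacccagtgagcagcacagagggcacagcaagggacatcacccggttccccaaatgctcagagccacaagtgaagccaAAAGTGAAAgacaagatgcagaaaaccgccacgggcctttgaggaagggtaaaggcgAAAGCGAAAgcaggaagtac
RefSeq windows were found for 42 of the 48 members, 51 windows in all, and 13 of these windows (25.5%) held TGACNNNGC on either strand against 10.9% of all 35116 windows. TTTCNNTTT was in 6 of the 51 windows (11.8%) against 9.2% of all windows, in PSMA4, PSMB4, PSMB10, PSMD6, PSME2 and PSMG4. Related letters were also counted, and some windows hold several of them. TGAGNNNGC, a second form of the antioxidant response element core, was in 21.6% of members' windows and 14.8% of all. CCAAT was in 37.3% and 32.0%, the GC box GGGCGG in 60.8% and 42.6% and the ETS core CCGGAAG in 21.6% and 8.52%. These are matches of letters only, and PSMD14, whose level is described below with that of PSMD12, had no match to TGACNNNGC in its window and 1 to TGAGNNNGC.

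With shRNA #1, 21 of the 46 members tested were higher than with NS shRNA and 11 were lower (45.7% and 23.9%), beside 32.8% higher and 33.3% lower among all 14341 genes tested. With shRNA #2, 19 were higher and 9 lower (41.3% and 19.6%), beside 33.5% and 33.4% of 14250 genes. Both comparisons use the same NS shRNA libraries. Calls were made at an adjusted p below 0.05 from limma on log2(normalized value + 1), and the members that passed lie within 1 log2 unit of 0. The median log2 fold change of the members was 0.05 with shRNA #1 and 0.11 with shRNA #2, beside 0.00 and 0.01 over all genes tested. With every library scaled by its reads on genes instead (RPM), the median of all genes with shRNA #2 shifted to -0.12 and the members split into 14 higher and 16 lower (30.4% and 34.8%), beside 25.6% and 41.5% of all genes. Upper quartile scaling gave 16 higher and 13 lower (34.8% and 28.3%), beside 28.1% and 38.8% of all genes. The split of the members with shRNA #2 thus moved with the scaling together with that of all genes, and small changes with that hairpin are given below with that limit.

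**Figure D1:**
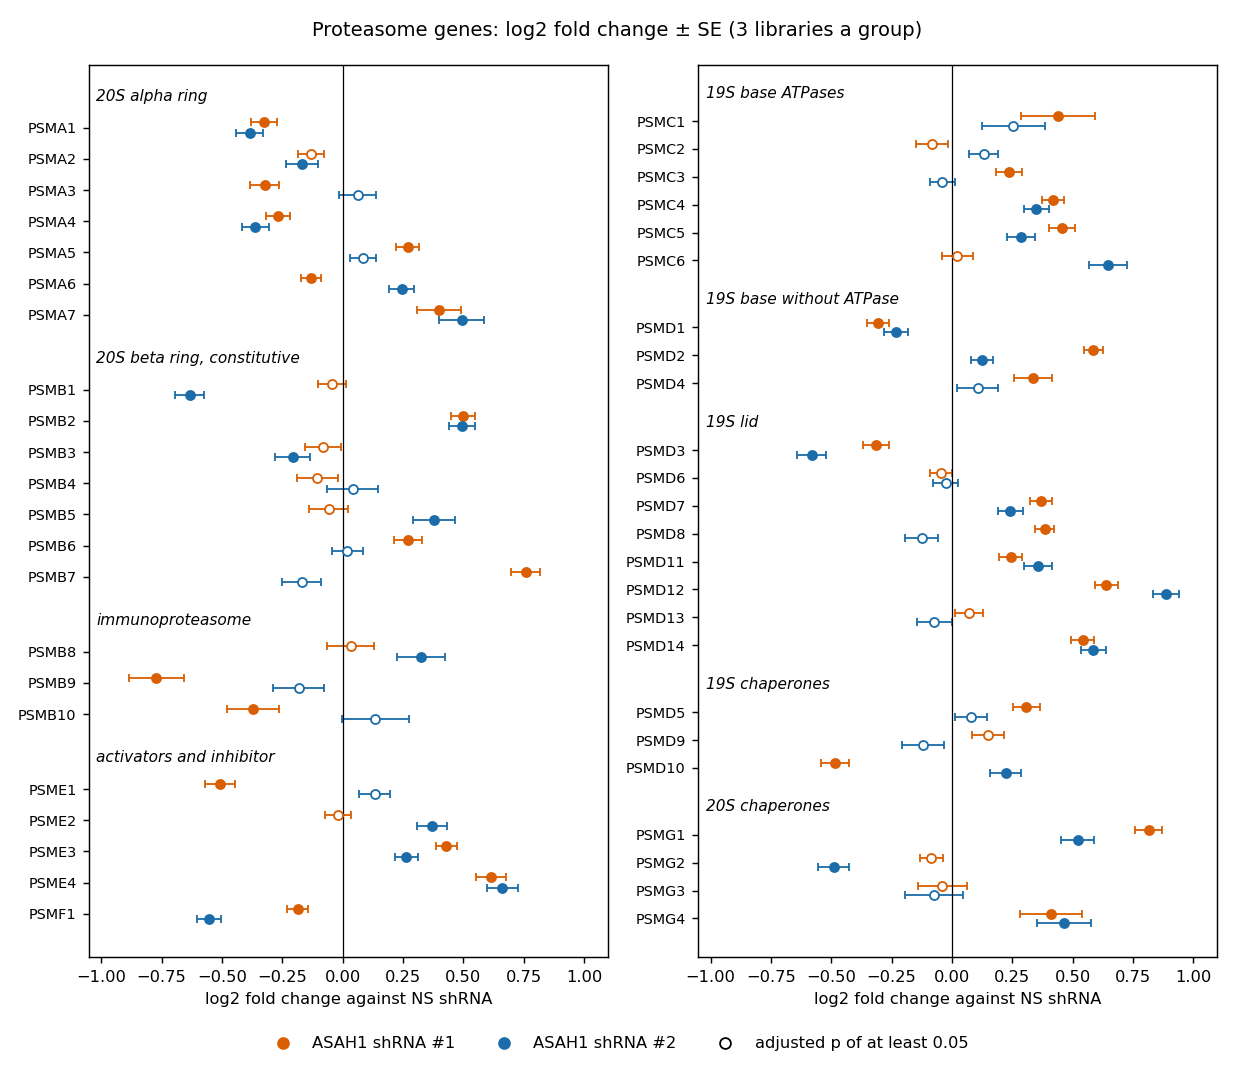
Log2 fold change of each of the 46 tested members against NS shRNA, with bars for the standard error (3 libraries a group), by role. Filled points passed the test. The 19S subunits lie mostly to the right of 0 with shRNA #1 (11 of 17 higher, 2 lower, beside 32.8% and 33.3% of all genes). The constitutive core lies on both sides with each hairpin.

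The 2 hairpins were also compared with each other, on reads of all 9 libraries with edgeR. Relative to shRNA #1, shRNA #2 cells had 12 members higher and 17 lower, beside 31.4% higher and 32.5% lower among 14381 genes. This split also moved with scaling, to 10 higher and 22 lower with upper quartile factors, beside 26% and 38.1% of all genes, and 9 and 25 with RPM, beside 21.7% and 43% of all genes. All members together took 0.707% ± 0.021 of the reads on genes with NS shRNA, 0.812% ± 0.017 with shRNA #1 and 0.695% ± 0.018 with shRNA #2 (SD, n = 3). On the common size-factor scale the sums were 238822 ± 8035, 271129 ± 6002 and 257500 ± 7511 normalized reads, so shRNA #2 overlapped NS shRNA as a share of reads and lay above it on the size-factor scale. In bulk RNA, fewer cells that express a gene and less RNA of it per cell cannot be told apart.

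In the constitutive 20S core, 5 of 14 genes were higher and 4 lower with shRNA #1, and 4 were higher and 5 lower with shRNA #2, with medians of -0.07 and 0.03, the second of which turned to -0.10 with RPM and -0.06 with upper quartile scaling. These shares, 35.7% and 28.6% with shRNA #1 and 28.6% and 35.7% with shRNA #2, lie near those of all genes given above. The alpha ring forms the gate of the barrel. Its PSMA7 rose with both hairpins, from 13038, 12652 and 10605 normalized reads with NS shRNA to 14508, 15477 and 17874 with shRNA #1 and 16578, 15370 and 19096 with shRNA #2. The NS shRNA libraries lay below all 6 others, and the log2 fold changes were 0.40 ± 0.09 (SE; adjusted p = 0.00394, limma) and 0.49 ± 0.09 (adjusted p = 0.000859). PSMA1 and PSMA4 fell with both hairpins, at -0.33 and -0.27 with shRNA #1 and -0.39 and -0.36 with shRNA #2. PSMA3 passed the threshold with shRNA #1 only (-0.32 ± 0.06, adjusted p = 0.000993), and was at 0.06 ± 0.08 with shRNA #2. PSMA5 rose with shRNA #1 by 0.27 ± 0.05 and was at 0.09 ± 0.05 with shRNA #2. PSMA2 was at -0.13 and -0.17, past the threshold with shRNA #2 only, and that call was lost without NS shRNA replicate 1 or 2 or without shRNA #2 replicate 1 or 2 (adjusted p of 0.0918 to 0.167).

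PSMA6 went in opposite directions. It was at 7967, 7964 and 7755 normalized reads with NS shRNA, 7279, 6995 and 7347 with shRNA #1 and 8960, 9549 and 9539 with shRNA #2, with no overlap between any pair of groups. The difference was -0.13 ± 0.04 with shRNA #1 (adjusted p = 0.0211) and 0.24 ± 0.05 with shRNA #2 (adjusted p = 0.00146). The first call was lost without NS shRNA replicate 2 (adjusted p = 0.0665) or shRNA #1 replicate 2 (0.112), and the second with RPM (0.11, adjusted p = 0.0792). PSMA6 has 4 named pseudogenes, and its level is uncertain for that reason.

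Among the beta subunits without an active site, PSMB2 and PSMB1 moved most. PSMB2 was at 4660, 5047 and 4941 normalized reads with NS shRNA, 7162, 6774 and 6747 with shRNA #1 and 6826, 6955 and 6831 with shRNA #2. Both hairpins therefore stood above all NS shRNA libraries, by 0.50 ± 0.05 (adjusted p = 1.67e-05) and 0.49 ± 0.05 (adjusted p = 1.39e-05). PSMB1 was at 8676, 7924 and 7739 with NS shRNA, 7664, 7599 and 8309 with shRNA #1 and 5027, 5204 and 5438 with shRNA #2. Only the shRNA #2 libraries stood apart, at -0.63 ± 0.06 (adjusted p = 5.94e-06) against -0.05 ± 0.06 with shRNA #1, and the hairpins themselves differed by -0.60 ± 0.06 (adjusted p = 4.67e-06, edgeR). PSMB3 was at -0.08 and -0.21, and PSMB4 at -0.11 and 0.04. The PSMB3 call with shRNA #2 was lost without NS shRNA replicate 1 or 2 or shRNA #2 replicate 1 or 2 (adjusted p of 0.0607 to 0.113).

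The 3 constitutive catalytic subunits did not move together. PSMB7, the trypsin-like subunit, was at 6571, 5629 and 6142 normalized reads with NS shRNA, 10611, 10271 and 10075 with shRNA #1 and 4854, 5967 and 5506 with shRNA #2. The shRNA #1 libraries lay above every other library, at 0.76 ± 0.06 (adjusted p = 3.98e-06). With shRNA #2 the value was -0.17 ± 0.08 (adjusted p = 0.0874), overlapping NS shRNA, and it passed the threshold without shRNA #2 replicate 2 (-0.24, adjusted p = 0.0231) and with RPM (-0.30, adjusted p = 0.00747). Between hairpins PSMB7 differed by -0.93 ± 0.08 (adjusted p = 1.01e-06, edgeR), the largest such difference among the members. PSMB5, the chymotrypsin-like subunit and the main target of bortezomib, was at 6768, 6954 and 5834 with NS shRNA, 5841, 6062 and 6872 with shRNA #1 and 8419, 7632 and 9358 with shRNA #2. It was higher with shRNA #2 by 0.38 ± 0.09 (adjusted p = 0.00287) and at -0.06 ± 0.08 with shRNA #1. PSMB6, the caspase-like subunit, was at 4213, 3951 and 3686 with NS shRNA, 4617, 4760 and 4913 with shRNA #1 and 3800, 4027 and 4167 with shRNA #2. Here shRNA #1 was higher by 0.27 ± 0.06 (adjusted p = 0.00243) and shRNA #2 stood at 0.02 ± 0.06.

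Of the 3 immunoproteasome subunits, 2 were lower with shRNA #1, and 1 was higher with shRNA #2 (0 higher and 1 lower with RPM or upper quartile scaling). All 3 were higher with shRNA #2 than with shRNA #1, PSMB8 without passing the test under RPM (0.14, adjusted p = 0.253) or upper quartile factors (0.20, 0.122). Among all genes, 33.3% were lower with shRNA #1, 33.5% higher with shRNA #2 and 31.4% higher with shRNA #2 than with shRNA #1. PSMB9, which replaces PSMB6, was at 1242, 1095 and 942 normalized reads with NS shRNA, 566, 636 and 714 with shRNA #1 and 918, 894 and 1068 with shRNA #2. All shRNA #1 libraries lay below the rest, at -0.77 ± 0.11 (adjusted p = 0.000244), the lowest log2 fold change of any member with that hairpin. With shRNA #2 the value was -0.18 ± 0.11 (adjusted p = 0.154), and leaving out NS shRNA replicate 3 brought it past 0.05 (-0.29, adjusted p = 0.0185), as did RPM (-0.32, adjusted p = 0.0192) and upper quartile scaling (-0.27, 0.0476).

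PSMB10, which replaces PSMB7, was at 1064, 1103 and 831 with NS shRNA, 749, 724 and 833 with shRNA #1 and 1148, 888 and 1263 with shRNA #2. The groups touch, since NS shRNA replicate 3 lies at the top shRNA #1 library. The difference with shRNA #1 was -0.37 ± 0.11 (adjusted p = 0.0129) and was lost without NS shRNA replicate 1 (-0.32, adjusted p = 0.0534) or 2 (-0.29, 0.0614) or shRNA #1 replicate 2 (-0.33, 0.053). PSMB8, which replaces PSMB5, was at 2486, 2532 and 2057 with NS shRNA, 2169, 2359 and 2710 with shRNA #1 and 2839, 2693 and 3324 with shRNA #2. Only shRNA #2 was higher, by 0.32 ± 0.10 (adjusted p = 0.0131), and this was 0.19 with RPM (adjusted p = 0.0962) and 0.24 with upper quartile scaling (0.0587).

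Between the hairpins, PSMB9 differed by 0.57 ± 0.12 (adjusted p = 0.00109, edgeR), PSMB10 by 0.51 ± 0.13 (adjusted p = 0.00623) and PSMB8 by 0.28 ± 0.11 (adjusted p = 0.039). The PSMB8 call was lost without shRNA #1 replicate 1 or 2 and without shRNA #2 replicate 1 or 3 (0.19 to 0.31, adjusted p of 0.0589 to 0.153). Leukocytes express the inducible subunits, and their markers were low: PTPRC had 1 to 8 reads, CD3E at most 3, LCK at most 2 and ITGAM 1 to 27. CD14, also on the list, had 155 to 1470 reads and with shRNA #1 it fell by 2.14 ± 0.09 on the log2 scale (adjusted p = 1.06e-07). With shRNA #2 CD14 was at 0.10 ± 0.09. ITGAM, the other gene of that list that was tested, rose with shRNA #1 by 2.39 ± 0.56 (adjusted p = 0.00399, limma) on its few reads. Their part in the PSMB9 and PSMB10 values was not tested.

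**Figure D2:**
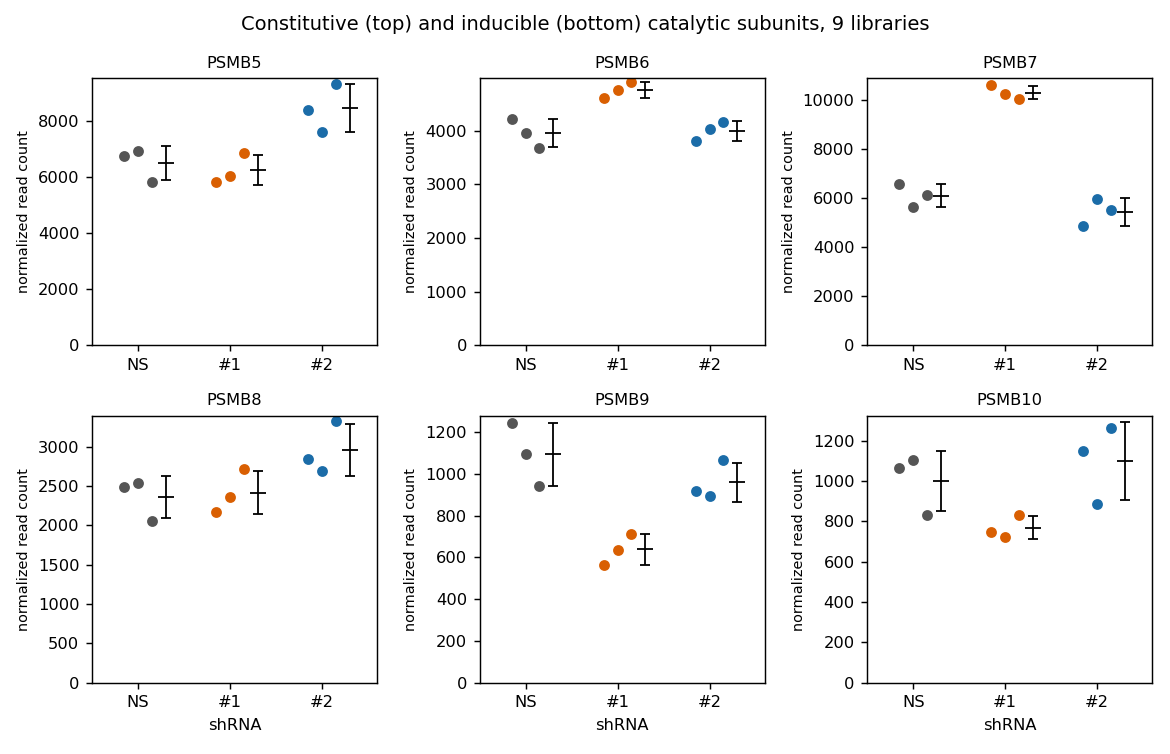
Normalized read counts (DESeq2 size factors over all 9 libraries) of the constitutive catalytic subunits (top) and the inducible subunits that replace them (bottom). Points are libraries, and the bar to their right is the mean with the SD (n = 3). PSMB7 is higher and PSMB9 lower in all 3 shRNA #1 libraries than in the other 6.

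To set each inducible subunit against the one it replaces within a library, levels were taken per kb of the canonical transcript. PSMB9 over PSMB6 was 0.239, 0.225 and 0.207 with NS shRNA, 0.0993, 0.108 and 0.118 with shRNA #1 and 0.196, 0.180 and 0.208 with shRNA #2. PSMB10 over PSMB7 was 0.163, 0.197 and 0.136 with NS shRNA, 0.0711, 0.0710 and 0.0832 with shRNA #1 and 0.238, 0.150 and 0.231 with shRNA #2. In both pairs the shRNA #1 ratios lay below all others, with a log2 difference to NS shRNA of -1.04 ± 0.09 for PSMB9 and -1.13 ± 0.17 for PSMB10. PSMB8 over PSMB5 stayed within a narrower range, 0.327 to 0.341 with NS shRNA, 0.345 to 0.366 with shRNA #1 and 0.313 to 0.330 with shRNA #2. A two-sided exact permutation test gave p = 0.10 for each of the 3 shRNA #1 ratios against NS shRNA, the smallest p that 3 against 3 allows, and 0.15 after adjustment over 15 comparisons. The shRNA #2 ratios overlapped NS shRNA in all 3 pairs (p of 0.2 or 0.3, exact permutation test).

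**Figure D3:**
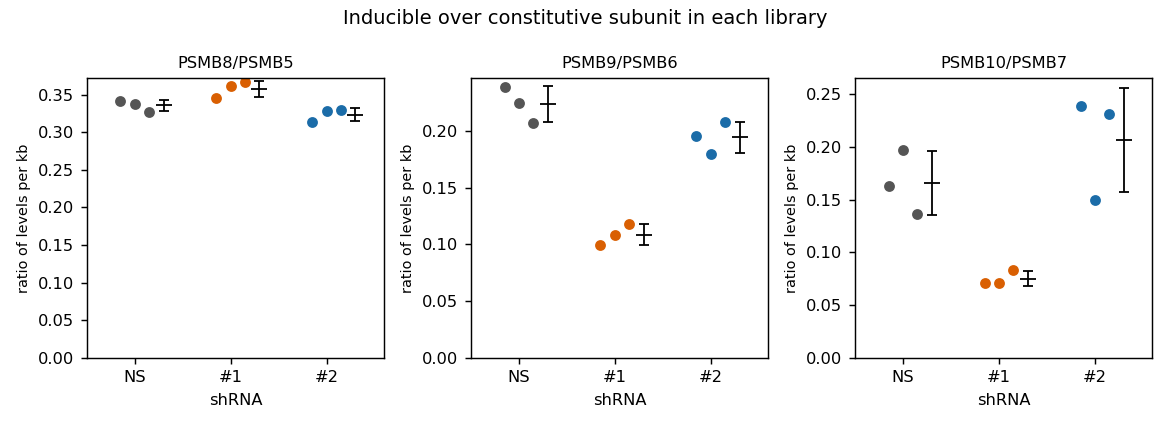
Ratio of each inducible to its constitutive subunit, from levels per kb, in each library, with the mean and SD (n = 3) to the right of the points. The PSMB9 to PSMB6 ratio has a mean of 0.224 with NS shRNA, 0.108 with shRNA #1 and 0.194 with shRNA #2, and PSMB10 to PSMB7 has 0.166, 0.0751 and 0.206.

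PSMB8 and PSMB9 lie on chromosome 6 among the peptide transporter genes TAP1 and TAP2, and PSMB9 and TAP1 start head to head, with 487 bases between the RefSeq first bases (1430 for the other TAP1 start). TAP1 was higher with both hairpins (0.26 and 0.37), as was TAP2 (0.77 and 0.83). PSMB9 also overlaps PSMB8-AS1 on the same strand in GENCODE, so reads in the shared stretch cannot be assigned to either. In the list of antigen processing genes, 3 of 9 were higher and 6 lower with shRNA #1, and 4 were higher and 4 lower with shRNA #2, beside 32.8% and 33.3% of all genes with shRNA #1 and 33.5% and 33.4% with shRNA #2. IRF1, an activator of interferon-response genes, was higher by 0.45 and 1.19, while NLRC5, the activator of MHC class I genes, was at -0.85 and -0.75. ERAP1, which trims peptides in the endoplasmic reticulum, was at -0.25 and 0.45, and B2M, the light chain of MHC class I, at -0.37 and -0.08.

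In the 19S cap, 11 of 17 genes were higher and 2 lower with shRNA #1 (64.7% and 11.8%), with a median of 0.34. All genes had 32.8% and 33.3%, and the counts of the cap genes were equal with RPM and upper quartile scaling. With shRNA #2, 8 were higher and 2 lower (47.1% and 11.8%, beside 33.5% and 33.4% of all genes), with a median of 0.13. RPM with shRNA #2 gave 6 and 6 with a median of -0.0019, beside 25.6% higher and 41.5% lower among all genes. Upper quartile scaling gave 7 and 4, beside 28.1% and 38.8% of all genes. The cap genes together took 0.300% ± 0.005 of reads with NS shRNA, 0.373% ± 0.007 with shRNA #1 and 0.301% ± 0.005 with shRNA #2. The core took 0.278% ± 0.014, 0.300% ± 0.011 and 0.263% ± 0.013.

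The ATPase ring unfolds the substrate. PSMC4 and PSMC5 were higher with both hairpins, at 0.42 and 0.45 with shRNA #1 and 0.35 and 0.29 with shRNA #2. PSMC6 was at 2020, 2134 and 1868 normalized reads with NS shRNA, 1918, 2081 and 2114 with shRNA #1 and 3021, 2954 and 3459 with shRNA #2, so that only shRNA #2 stood apart (0.65 ± 0.08, adjusted p = 3.19e-05, against 0.02 ± 0.07). PSMC3 was higher with shRNA #1 (0.24 ± 0.05) and at -0.04 ± 0.05 with shRNA #2, and PSMC2 passed with neither (-0.08 and 0.13). PSMC1 had only 91 to 169 reads per library, 23.4 per kb with NS shRNA where the other ATPases had 928 to 5060. It has 13 named pseudogenes in GENCODE, the most of any member, and its level is uncertain. Its call with shRNA #1 (0.44 ± 0.15, adjusted p = 0.0284) was lost without NS shRNA replicate 1 (0.0728) or 2 (0.0909) or shRNA #1 replicate 3 (0.108).

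In the rest of the base, PSMD2, a scaffold that docks ubiquitin shuttles, was the member with the most reads. It was at 22123, 21694 and 21931 normalized reads with NS shRNA, 32252, 33543 and 32861 with shRNA #1 and 24012, 24007 and 23545 with shRNA #2. The shRNA #1 libraries stood far above the rest, at 0.59 ± 0.04 (adjusted p = 1.61e-06). With shRNA #2 the value was 0.12 ± 0.05 (adjusted p = 0.0332), lost without NS shRNA replicate 2 or 3 or any 1 of the shRNA #2 libraries (adjusted p of 0.0561 to 0.106) and at -0.01 with RPM. PSMD1, the other large scaffold, fell with both hairpins, at -0.31 and -0.23. PSMD4, a ubiquitin receptor, was higher with shRNA #1 by 0.34 ± 0.08 and at 0.11 ± 0.09 with shRNA #2.

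The lid removes ubiquitin chains through PSMD14, its deubiquitinase. PSMD14 was at 6146, 5956 and 5960 normalized reads with NS shRNA, 8365, 8821 and 9124 with shRNA #1 and 8689, 9387 and 9020 with shRNA #2. PSMD12, a structural lid subunit, was at 3450, 3431 and 3633, then 5570, 5577 and 5236, then 6186, 6760 and 6505 in the same order of groups. For both genes all NS shRNA libraries lay below the other 6. PSMD14 was higher by 0.54 ± 0.05 (adjusted p = 8.02e-06) and 0.59 ± 0.05 (adjusted p = 3.41e-06), and PSMD12 by 0.64 ± 0.05 (adjusted p = 3.21e-06) and 0.89 ± 0.06 (adjusted p = 3.41e-07), the highest value of any member with shRNA #2. PSMD7, the partner of PSMD14, rose by 0.37 and 0.24, the second value being 0.11 with RPM (adjusted p = 0.0943), and PSMD11 by 0.24 and 0.36.

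PSMD3, a lid subunit, moved the other way. It was at 6214, 5786 and 6506 with NS shRNA, 5159, 4863 and 4851 with shRNA #1 and 4055, 4281 and 4015 with shRNA #2, at -0.31 ± 0.06 (adjusted p = 0.000735) and -0.58 ± 0.06 (adjusted p = 9.66e-06). Of the 4 upstream stretches shown above that hold TGACNNNGC, those of PSMD12 and PSMG1 belong to genes that were higher with both hairpins. That of PSMD3 belongs to one that was lower with both and that of PSMB9 to one that was lower with shRNA #1. These 4 were chosen from the 13 members with a match. Of the rest, PSMC5 and PSME4 were higher and PSMA4 lower with both hairpins. PSMD5 was higher with shRNA #1 only and PSME2 with shRNA #2 only. PSME1 was lower with shRNA #1 only, PSMB3 and PSMG2 with shRNA #2 only, and PSMD9 passed with neither. PSMD8 was at 6759, 6759 and 6922 with NS shRNA, 8946, 8831 and 8891 with shRNA #1 and 5873, 6992 and 5925 with shRNA #2. Only shRNA #1 differed from NS shRNA (0.38 ± 0.04, adjusted p = 2.51e-05), and the hairpins differed by -0.52 ± 0.06 (adjusted p = 2.3e-05, edgeR). PSMD6 (-0.04 and -0.03) and PSMD13 (0.07 and -0.07) passed with neither hairpin. With RPM, PSMC3, PSMD6, PSMD8 and PSMD13 were lower with shRNA #2, at -0.17, -0.16, -0.26 and -0.21.

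**Figure D4:**
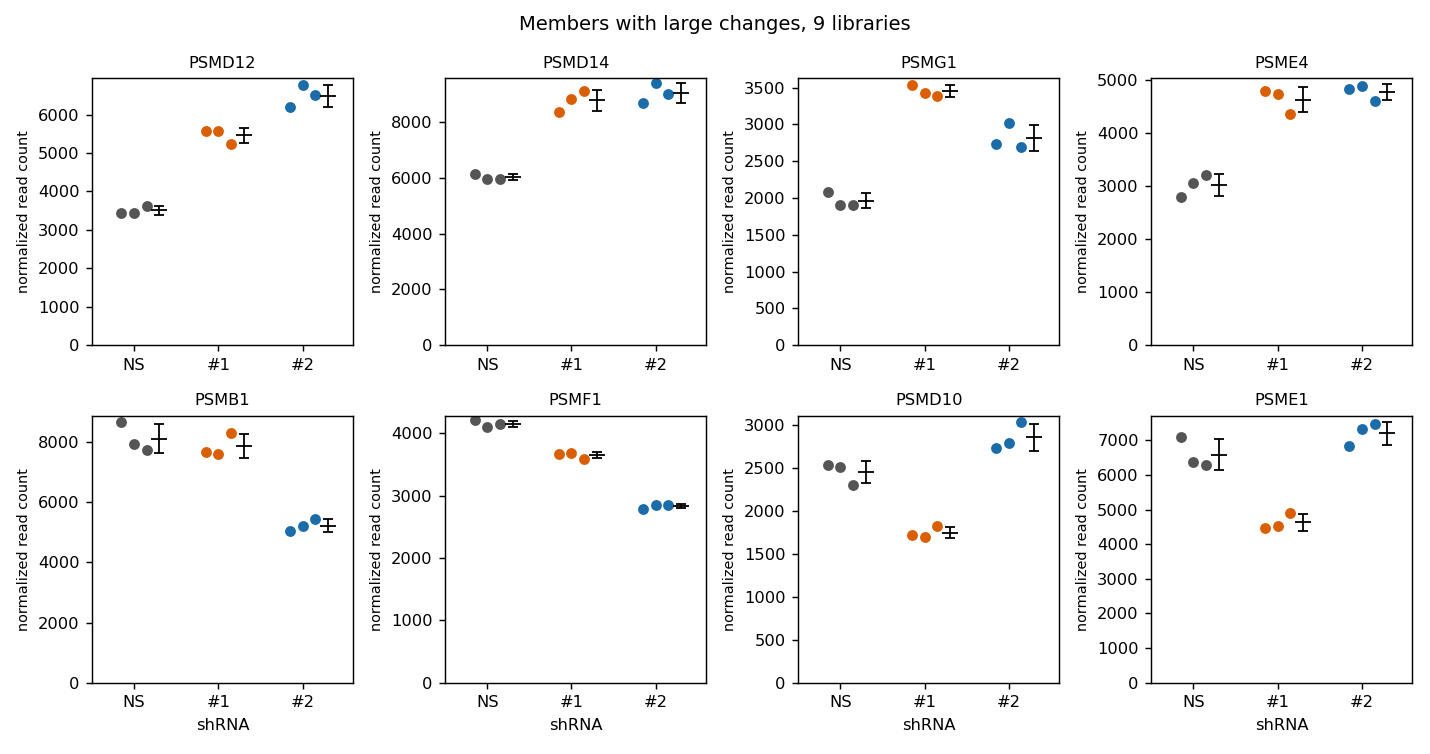
Normalized read counts of 8 members with large changes in the 9 libraries, with the mean and SD (n = 3) to the right of the points. PSMD12, PSMD14, PSMG1 and PSME4 lie above NS shRNA with both hairpins, PSMB1 is low with shRNA #2 only, PSMF1 is low with both, and PSMD10 and PSME1 are low with shRNA #1 only.

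Of the 7 assembly chaperones, 3 were higher and 1 lower with each hairpin (42.9% and 14.3%). Among all genes, 32.8% were higher and 33.3% lower with shRNA #1, and 33.5% and 33.4% with shRNA #2. With shRNA #2, RPM gave 2 and 2 of the chaperones, beside 25.6% and 41.5% of all genes. PSMG1 and PSMG2 form a dimer that builds the alpha ring, and they did not move together. PSMG1 was at 2085, 1902 and 1903 normalized reads with NS shRNA, 3540, 3425 and 3387 with shRNA #1 and 2737, 3015 and 2695 with shRNA #2. No group overlapped another, and the increases were 0.81 ± 0.05 (adjusted p = 1.45e-06), the highest of any member with shRNA #1, and 0.52 ± 0.07 (adjusted p = 5.29e-05). PSMG2 was at 2877, 2923 and 2802 with NS shRNA, 2746, 2631 and 2735 with shRNA #1 and 1940, 2196 and 1994 with shRNA #2, at -0.08 ± 0.05 and -0.49 ± 0.06 (adjusted p = 5.39e-05). The second pair of alpha ring chaperones, PSMG3 and PSMG4, also differed. PSMG4 was higher by 0.41 and 0.46, while PSMG3 was at -0.04 and -0.07.

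Among the members, 3 are chaperones of the 19S base, PSMD5, PSMD9 and PSMD10. PSMD10, also known as gankyrin, was at 2532, 2512 and 2302 normalized reads with NS shRNA, 1715, 1702 and 1827 with shRNA #1 and 2739, 2795 and 3037 with shRNA #2. The 3 groups did not overlap, with shRNA #1 lowest and shRNA #2 highest. Against NS shRNA the values were -0.49 ± 0.06 (adjusted p = 6.29e-05) and 0.22 ± 0.07 (adjusted p = 0.0113), and the second call was lost with upper quartile scaling (0.13, adjusted p = 0.102) and RPM (0.09, adjusted p = 0.243). PSMD5 was at 0.31 and 0.08, past the threshold with shRNA #1, and PSMD9 at 0.15 and -0.12, past it with neither.

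Activators open the core in place of, or beside, the 19S cap. PSME1 and PSME2 form the interferon-inducible PA28 alpha-beta ring, and their genes lie 4394 bases apart on chromosome 14. PSME1 was at 7093, 6361 and 6294 normalized reads with NS shRNA, 4453, 4530 and 4900 with shRNA #1 and 6827, 7330 and 7460 with shRNA #2, so that shRNA #1 alone stood lower (-0.51 ± 0.06, adjusted p = 6.63e-05, against 0.13 ± 0.06 with shRNA #2). PSME2 was at -0.02 ± 0.05 and 0.37 ± 0.06, past the threshold with shRNA #2 (adjusted p = 0.000327), and has 6 named pseudogenes. Between the hairpins both partners were higher with shRNA #2, by 0.63 ± 0.06 and 0.38 ± 0.06 (adjusted p = 5.43e-06 and 0.000149, edgeR).

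The nuclear activators rose with both hairpins. PSME4, also called PA200, was at 2799, 3051 and 3209 normalized reads with NS shRNA, 4783, 4737 and 4348 with shRNA #1 and 4836, 4875 and 4595 with shRNA #2. This is 0.62 ± 0.06 (adjusted p = 2.12e-05) and 0.66 ± 0.06 (adjusted p = 6.39e-06), with no NS shRNA library reaching the others. PSME3, PA28 gamma, rose by 0.43 ± 0.04 and 0.26 ± 0.05. PSMF1, the inhibitor PI31, was at 4205, 4102 and 4144 with NS shRNA, 3670, 3688 and 3588 with shRNA #1 and 2790, 2849 and 2843 with shRNA #2, at -0.19 ± 0.04 (adjusted p = 0.00392) and -0.55 ± 0.05 (adjusted p = 4.72e-06). Within a library, PSME1 over PSME3 per kb was 2.67 to 3.08 with NS shRNA, 1.39 to 1.63 with shRNA #1 and 2.44 to 2.72 with shRNA #2.

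PSMA8, the testis form of an alpha subunit, had at most 1 read in any library and PSMB11, the thymus form of PSMB5, at most 2, and neither was tested. The other 46 had means of at least 10 in each table. Levels per kb with NS shRNA ran from 1103 in PSMB2 to 12576 in PSMA7 among the constitutive core genes. The products of these genes occupy equal numbers of places in the barrel. The levels depend on the canonical transcript used, which has 4426 bases for PSMB2 and 962 for PSMA7. Before division by length, PSMB2 had a mean of 4883 normalized reads with NS shRNA, above the 3950 of PSMB6. Per kb, the 19S genes other than PSMC1 ran from 805 in PSMD12 (4356 bases) to 7523 in PSMD2 (2913 bases). The chaperones ran from 834 in PSMG3 to 2680 in PSMG2, and the inducible subunits from 1023 in PSMB10 to 2098 in PSMB8. In all, 17 members have named pseudogenes (44 together) and 9 overlap another annotated gene on the same strand, so that levels of these are less certain. In NS shRNA cells PSMB9 and PSMB10 did not differ beyond their spread (1075 ± 147 and 1023 ± 150 per kb, SD, n = 3).

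**Figure D5:**
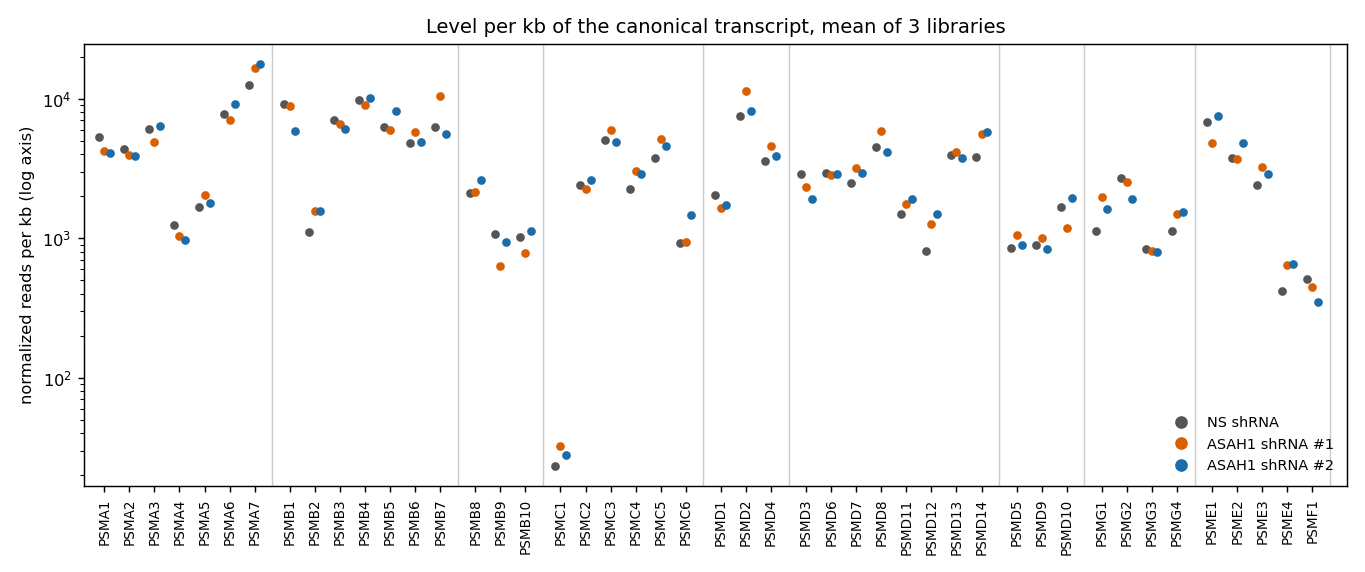
Normalized reads per kb of the canonical transcript on a log axis, as means of the 3 libraries of each group, for the 48 members other than PSMA8 and PSMB11. PSMC1 lies far below every other subunit, and the 3 inducible subunits lie below PSMB5, PSMB6 and PSMB7 in each group.

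Of 12 further genes that act on the proteasome, 11 were found in the files. By limma, 8 of these were higher and 0 lower with each hairpin. That is 72.7% higher, beside 32.8% higher and 33.3% lower among all genes with shRNA #1 and 33.5% and 33.4% with shRNA #2. At an unadjusted p below 0.05, 0 of the 11 were lower with either hairpin, as were 0 by edgeR or DESeq2. RPM or upper quartile scaling put 1 lower with shRNA #2, beside 41.5% and 38.8% of all genes. ADRM1, a ubiquitin receptor of the cap, was higher by 0.76 and 0.47. The deubiquitinases UCHL5 (0.29 and 0.53) and USP14 (0.22 and 0.44) were also higher. AKIRIN2, which carries proteasomes into the nucleus, rose by 1.04 and 0.50, and the proteasome-binding proteins PITHD1 and ZFAND2A by 0.99 and 0.64 with shRNA #1 and 1.16 and 0.66 with shRNA #2. POMP, on the same list, had means of 4069 ± 360, 4236 ± 359 and 4358 ± 437 normalized reads with NS shRNA, shRNA #1 and shRNA #2. For PAAF1 these were 533 ± 31, 500 ± 22 and 484 ± 45 (SD, n = 3).

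NFE2L1, the activator of proteasome genes named above, went in opposite directions. It was at 12335, 12555 and 12862 normalized reads with NS shRNA, 17071, 17743 and 16436 with shRNA #1 and 11313, 10864 and 10653 with shRNA #2. No groups overlapped, and the values were 0.44 ± 0.04 (adjusted p = 2.04e-05) and -0.20 ± 0.05 (adjusted p = 0.00438). Its protein is drawn from the endoplasmic reticulum by VCP, and VCP was at 23060, 23396 and 21593 with NS shRNA, 8626, 9012 and 9578 with shRNA #1 and 25372, 23079 and 26399 with shRNA #2. With shRNA #1 the log2 fold change was -1.32 ± 0.05 (adjusted p = 6.93e-08), and with shRNA #2 the value was 0.14 ± 0.06 (adjusted p = 0.074), which passed without shRNA #2 replicate 2 (0.19, adjusted p = 0.0163).

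DDI2, the protease that activates NFE2L1, was higher by 1.00 and 1.32, on 52 to 204 reads (6.86 per kb with NS shRNA). It overlaps RSC1A1 on the same strand in GENCODE, so its level is less certain. NGLY1, which removes the sugars of NFE2L1, was higher by 0.24 and 0.33. SYVN1, the ligase that marks NFE2L1 for degradation, was at -0.41 and -0.43. The small MAF proteins pair with NFE2L1 on DNA, and MAFF (1.59 and 1.67), MAFG (0.67 and 1.01) and MAFK (0.66 and 0.91) were higher with both hairpins. VCP, SYVN1, MAFG and, among the antigen processing genes, TAP2 also overlap another annotated gene on the same strand, so their levels are less certain. In this list of 9 genes, 7 were higher and 2 lower with shRNA #1 (77.8% and 22.2%), and 6 and 2 with shRNA #2 (66.7% and 22.2%). Of 10 genes for ubiquitin supply and shuttles, UBA1 among them, 5 were higher with each hairpin (50%). In that second list 3 were lower with shRNA #1 (30%) and 2 with shRNA #2 (20%). The shares among all genes were 32.8% higher and 33.3% lower with shRNA #1, and 33.5% and 33.4% with shRNA #2. RAD23B, a shuttle to the cap, was higher by 0.50 and 0.63. UBQLN2, of the same list, had means of 2028 ± 125, 1690 ± 80 and 1702 ± 129 normalized reads with NS shRNA, shRNA #1 and shRNA #2 (SD, n = 3).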

How the data were processed

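RNA-seq of MDA-MB-231 cells was taken as 2 tables in which the authors deposited, per gene and library, a normalized signal, the read count divided by a size factor of that table. Per the submitters' processing notes, the tools were Trimmomatic 0.36, STAR 2.7.1a, HTSeq and DESeq2 1.28 with hg38, and the methods state reverse-strand counting on UCSC genes. The labels name both oligo-dT purification and ribosomal RNA depletion. The authors also deposited their own log2 fold change, its standard error, a Wald score, a p-value and an adjusted p-value, which were not used. All per-sample columns were matched, with 0 unmatched. The signals were whole multiples of 1 step per library (100% within 0.001 of a read), so reads were recovered.

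Each hairpin was compared with NS shRNA within its own table by limma 3.58.1 with an intensity trend on log2(signal + 1), two-sided, on genes averaging 10 or more, with Benjamini-Hochberg adjustment over all genes and calls at 0.05. For shRNA #2 against shRNA #1, edgeR 4.0.16 (quasi-likelihood, TMM) was run on recovered reads of all 9 libraries. edgeR and DESeq2 1.42.0 on recovered reads were alternatives for the first comparisons and gave the same number of called members as limma. Values per library are reads over DESeq2 size factors of all 9 libraries, and per-kb levels use the canonical transcript of GENCODE v44. R 4.3.3 and Python 3.11.15 were used, and the fits were tested on simulated data. Members, lists and named genes (every PSM gene, with per-library values for those at 0.5 log2 units or more and the catalytic subunits) were chosen with earlier results of these data known. The biological coefficient of variation was 7.08% for NS shRNA, 8.19% for shRNA #1 and 7.44% for shRNA #2. The alternatives covered the pseudocount, the filter, the trend, the scaling, the tool, the replicate block and each library left out. Depth limits genes with few reads. Some items are not reported here.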

Additional observations from a re-analysis of the deposited data

Results flagged for a closer look

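These 4 genes were singled out because shRNA #1 and shRNA #2 moved them past the threshold in opposite directions against NS shRNA. The difference between the hairpins, from edgeR on the same libraries, is therefore given as its size only and is no independent test. As log2 of shRNA #2 over shRNA #1, PSMA6 stood at 0.36 ± 0.04 (SE). For PSMD10 it was 0.70 ± 0.06. NFE2L1 stood at -0.65 ± 0.04, and ERAP1 at 0.68 ± 0.08. The ERAP1 call with shRNA #1 against NS shRNA was lost without NS shRNA replicate 2 (-0.24, adjusted p = 0.0619, limma).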

How the results depend on the processing

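With values scaled by each library's reads on genes (RPM), an alternative chosen after seeing the data, shRNA #2 gave 14 members higher and 16 lower against NS shRNA in place of 19 and 9, and 9 higher and 25 lower against shRNA #1 in place of 12 and 17. Leaving out 1 library at a time gave 20 to 21 higher and 9 to 14 lower with shRNA #1, 18 to 21 and 7 to 10 with shRNA #2, and 10 to 12 and 14 to 19 between hairpins. The other alternatives, among them pseudocounts of 0.1 and 5, no filter, a mean of at least 50, edgeR and DESeq2, stayed within 1.5 times of each count. Among the members tested, PSMC1 had the fewest reads, 91 to 169 per library.

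The replicate numbers did not pair the NS shRNA libraries with those of the hairpins: the correlation of same-numbered deviations from the group means was -0.60 to -0.13. Between the hairpins it was 0.07 to 0.44. There, replicates 2 and 3 of shRNA #1 correlated most with the same number of shRNA #2, and replicate 1 did not. A fit with the replicate block gave 20 higher and 10 lower with shRNA #1, 17 and 7 with shRNA #2, and 11 and 15 between hairpins. Among the members' calls, it lost those of PSMA6 and PSMG4 with shRNA #1 and of PSMA2, PSMB3, PSMD2 and PSMD10 with shRNA #2. It also lost those of PSMB8, PSMD4 and PSMD7 between hairpins (adjusted p of 0.0509 to 0.172 over all the lost calls). Without the trend in limma, PSMG4 and ERAP1 lost their calls with shRNA #1 and PSMA2, PSMB3, PSMB8 and PSMD2 with shRNA #2 (adjusted p of 0.0524 to 0.0941), while PSMC1 passed with shRNA #2 (0.0454).

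Signs changed for log2 values near 0. RPM with shRNA #2 against NS shRNA put PSMA3 at -0.072, PSMA5 at -0.048, PSMB4 at -0.093, PSMB6 at -0.11, PSMC2 at -0.0019, PSMD2 at -0.011, PSMD4 at -0.028, PSMD5 at -0.056, PSME1 at -0.0019 and CD14 at -0.036, and between hairpins PSMA7 at -0.059, PSMD1 at -0.078, PSMD6 at -0.13, PSMD11 at -0.036, PSMD14 at -0.11, PSMG4 at -0.11 and PSME4 at -0.11. Upper quartile scaling with shRNA #2 put PSMA3 at -0.028, PSMA5 at -0.0040, PSMB4 at -0.048, PSMB6 at -0.071 and PSMD5 at -0.011, and between hairpins PSMD1 at -0.015, PSMD6 at -0.069, PSMD14 at -0.045, PSMG4 at -0.044 and PSME4 at -0.042. Centring on the library median put PSME2 at 0.016 with shRNA #1 and PSMD6 at 0.010 with shRNA #2, and a mean of at least 50 put PSMD6 at -0.0072 between hairpins. Of these, only PSMD2 with shRNA #2 was past the threshold as reported, and only PSMD6 between hairpins under the alternative (RPM, adjusted p = 0.0244).

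Without 1 library, against NS shRNA with shRNA #1, PSMB1 ran from -0.088 to 0.0044, PSMB8 ran from -0.062 to 0.11, PSMC6 ran from -0.028 to 0.067, PSMG3 ran from -0.14 to 0.056 and PSME2 ran from -0.051 to 0.016. With shRNA #2, PSMA3 ran from -0.016 to 0.11, PSMB4 ran from -0.066 to 0.15, PSMB6 ran from -0.031 to 0.066 and PSMG3 ran from -0.19 to 0.025. Between hairpins, PSMA7 ran from -0.0083 to 0.17, PSMB2 ran from -0.032 to 0.011, PSMD6 ran from -0.012 to 0.021, PSMD14 ran from -0.0029 to 0.063, PSMG3 ran from -0.16 to 0.052, PSMG4 ran from -0.066 to 0.15 and PSME4 ran from -0.0058 to 0.061. Without NS shRNA replicate 3, PSMA2, PSMB3 and PSMB4 passed the threshold with shRNA #1, at -0.17, -0.16 and -0.20. Without NS shRNA replicate 1, PSMD9 passed with shRNA #1 (0.20), and PSMC2 (0.17) and PSME1 (0.19) passed with shRNA #2. PSMD8 with shRNA #2 passed without shRNA #2 replicate 2 (-0.21), and PSMD9 without shRNA #2 replicate 3 (-0.20). Calls between hairpins were lost without 1 library for PSMC2, PSMD4, PSMD7 and PSMD9, and gained for PSMB3, PSMD11 and PSMD13. The cause of these changes was not tested.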
